A study of Mus musculus with 16 samples.

Results

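Fos, Jun, Junb, Jund, Btg2, Dusp1, Zfp36 and Nfkbia were 8 of the 9428 genes in the count table of lymph node T cells, and were picked by name as immediate early genes of the AP-1 factors, of RNA decay and of signal feedback. The cells were CD8+CD44+ T cells, sorted from C57BL/6 mice aged 16 weeks with melanoma-associated vitiligo, the loss of pigment that follows an immune response to melanoma. They came from the tumor-draining lymph node 45 days after the tumor was removed by surgery, and the study set them beside matched skin. Libraries of single-cell RNA and of T cell receptors (TCR) were made from each tissue, 4 libraries in all, each sequenced on 4 lanes that share its cells and are not replicates. The skin RNA was not analysed here, and how many mice were pooled is not stated. All groups below are therefore groups of cells within 1 lymph node RNA library of 3266 cells. With 1 library there was no test. Every 95% interval covers counting error only, or for shares of cells the drawing of cells within this library.

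Immediate early genes are transcribed within minutes of a signal, without new protein synthesis, and their short-lived RNAs are removed again by decay. Fos and the Jun proteins pair to form AP-1, a transcription factor that works with NFAT downstream of the T cell receptor. The same genes also respond to growth factors, cytokines and stress, including the handling of tissue. Egr1 and Nr4a1, 2 other immediate early genes that report recent TCR signals in mouse T cells, served as the comparison.

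The AU-rich site TATTTAT, the core of the sequence bound by the protein that Zfp36 encodes, lies in the 3′ untranslated region (UTR) of RNAs that this protein targets for decay. It was searched on the transcript strand of GENCODE M21 transcripts (mouse build mm10), and 1 site is shown for each of the 7 genes that had it, because it is the sequence feature most of them share. Capitals mark the site.

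Dusp1 3′ UTR site, chr17:26505874-26505894, minus strand: ttaccttTATTTATttttgtg

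Zfp36 3′ UTR site, chr7:28376955-28376975, minus strand: acgacttTATTTATtgtatta

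Fos 3′ UTR site, chr12:85477107-85477127, plus strand: ttcaattTATTTATtaagatg

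Nfkbia 3′ UTR site, chr12:55489612-55489632, minus strand: cacgtttTATTTATtgtgctt

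Jun 3′ UTR site, chr4:95049083-95049103, minus strand: ttgtgcaTATTTATaatagcg

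Jund 3′ UTR site, chr8:70700363-70700383, plus strand: tccgcccTATTTATgtttcta

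Btg2 3′ UTR site, chr1:134077253-134077273, minus strand: gaagagcTATTTATacatgtt

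Dusp1 and Zfp36 each held 3 such sites, in 3′ UTRs of 690 and 774 bases. Fos and Nfkbia each held 2, in 815 and 512 bases. Jun, Jund and Btg2 each held 1, in 1233, 533 and 2199 bases, and Junb (chr8:84974484-84978718, minus strand) held 0 in 485 bases. Of 8921 genes of the table with an annotated 3′ UTR, 30.5% held the site and 11.0% held it at least 2 times, and the median 3′ UTR had 1176 bases. The match is a description of letters and not of binding.

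The promoters had few of the motifs searched in common. In the 300 bases around each start in the RefSeq promoter table (GRCm38.p6), the cAMP response element TGACGTCA was found in Btg2 and Dusp1, against 1.79% of 32851 promoters. The CArG box, the site of serum response factor, was found in Zfp36 (1.63% of promoters), and a kappaB site was found in Fos and Nfkbia (4.51%). The Egr site GCGNGGGCG was found in Btg2 and Zfp36 (5.55%), and TATAAA in Fos, Junb and Nfkbia (13.6%). The AP-1 site TGANTCA was found in 0 of the 8 windows, against 7.81% of promoters. Jund's window ended upstream of its GENCODE start, so its lack of matches does not describe that start, and it is not shown. Both strands were searched, and no 2 of these motifs shared bases in the windows printed here. Of the windows, 4 are printed because they hold the cAMP response element, the Egr site, the CArG box and the kappaB site, which differ from gene to gene. Capitals mark the motifs named above, and in Nfkbia the TATAAA box reads TTTATA because it lies on the other strand.

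Btg2 promoter, chr1:134079106-134079405, minus strand: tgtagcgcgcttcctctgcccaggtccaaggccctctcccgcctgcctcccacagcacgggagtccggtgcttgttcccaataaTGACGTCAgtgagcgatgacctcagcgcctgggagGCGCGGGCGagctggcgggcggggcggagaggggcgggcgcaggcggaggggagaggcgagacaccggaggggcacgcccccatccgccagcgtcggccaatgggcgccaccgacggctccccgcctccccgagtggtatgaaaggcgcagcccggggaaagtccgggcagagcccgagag

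Dusp1 promoter, chr17:26508423-26508722, minus strand: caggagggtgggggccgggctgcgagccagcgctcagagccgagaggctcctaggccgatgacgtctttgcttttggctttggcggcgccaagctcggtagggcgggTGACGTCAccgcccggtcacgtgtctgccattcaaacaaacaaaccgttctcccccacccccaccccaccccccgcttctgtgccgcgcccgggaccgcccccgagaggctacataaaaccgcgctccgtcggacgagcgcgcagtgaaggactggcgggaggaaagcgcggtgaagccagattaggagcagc

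Zfp36 promoter, chr7:28379179-28379478, minus strand: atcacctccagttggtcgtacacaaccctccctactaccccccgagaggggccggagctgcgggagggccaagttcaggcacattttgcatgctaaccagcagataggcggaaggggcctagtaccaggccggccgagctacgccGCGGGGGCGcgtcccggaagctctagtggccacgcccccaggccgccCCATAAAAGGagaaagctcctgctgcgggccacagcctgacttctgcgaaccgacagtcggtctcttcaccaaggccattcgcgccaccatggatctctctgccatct

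Nfkbia promoter, chr12:55492598-55492897, minus strand: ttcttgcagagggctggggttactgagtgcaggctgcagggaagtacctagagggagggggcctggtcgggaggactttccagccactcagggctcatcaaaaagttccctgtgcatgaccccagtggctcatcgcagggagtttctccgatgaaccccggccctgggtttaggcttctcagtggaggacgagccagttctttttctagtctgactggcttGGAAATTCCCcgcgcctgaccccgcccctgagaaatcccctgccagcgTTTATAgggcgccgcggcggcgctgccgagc

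The library held 14556622 UMIs (unique molecular identifiers, each tagging 1 captured RNA molecule). A cell had a median of 4423 UMIs, between 461 and 12576, and a median mitochondrial share of 2.59%, at most 4.99%. All 6 CD8 T cell markers searched were in the table, at 4168 CPM together (UMIs per 1000000). B cell markers (7 of 10 in the table) summed to 234 CPM, myeloid markers (3 of 9) to 11.4 CPM and CD4 T cell markers (2 of 4) to 10.7 CPM. No gene searched for plasma cells, dendritic cells, gamma-delta T cells, stromal cells or erythroid cells was in the table, which lists genes seen in at least 14 cells. No cell type that should lack the 8 genes was present, so the share of their UMIs that came from free RNA could not be set. Of the barcodes in the table, 12 were also in the skin TCR table.

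Junb, an AP-1 subunit, was the most abundant of the 8, with 485 CPM (474 to 497) and at least 1 UMI in 74.9% of cells (73.4% to 76.4%). Its counts per cell reached 19, and 1658 cells held at least 2 UMIs. Jund, the Jun protein known for steady expression in resting cells, had 253 CPM (244 to 261) in 60.4% of cells. Jun itself had 129 CPM (123 to 135) in 33.0% of cells. Fos, which needs a Jun partner to bind DNA well, had 46.9 CPM (43.5 to 50.6) in 14.3% of cells, and no cell held more than 8 UMIs of it. So the AP-1 subunits spanned a wide range of CPM.

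Btg2, which recruits the deadenylase that shortens RNA tails and restrains T cell activation, had 260 CPM (252 to 268) in 60.7% of cells. Zfp36 (tristetraprolin) binds AU-rich RNAs and speeds their decay. It had 158 CPM (151 to 164) in 43.9% of cells. Nfkbia encodes IκBα, the inhibitor that NF-κB induces against itself, and had 162 CPM (156 to 169) in 43.2% of cells. Dusp1, a phosphatase that switches off p38 and JNK, was the lowest with 36.2 CPM (33.2 to 39.4) in 12.6% of cells. In this order of CPM, which were not divided by gene length since a UMI counts a molecule once, the intervals of Btg2 and Jund overlapped, as did those of Nfkbia and Zfp36. All other neighbours in the order were apart. Egr1 had 11.0 CPM in 3.58% of cells and Nr4a1 had 3.78 CPM in 1.29%. Of the 8 genes, 5 overlap an annotated gene on the opposite strand (Jun, Junb, Jund, Zfp36 and Dusp1), and 2 of these partners, Prdx2 and Ergic1, are in the table. The sources used here do not state whether counting used strand.

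Shares of cells with a UMI depend on how deeply each cell was read. Each cell was therefore thinned at random to 1500 UMIs, which left out 176 shallower cells and kept 3090. The share of cells with a UMI was then 47.7% for Junb, 31.4% for Jund and 30.8% for Btg2. It was 20.7% for Zfp36, 19.4% for Nfkbia and 15.7% for Jun. Fos was seen in 5.37% and Dusp1 in 4.79% of thinned cells. The order by thinned share placed Zfp36 above Nfkbia and Jund above Btg2, and within each of these pairs the intervals overlapped.

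Each of the 8 genes had a variance over cells above its mean. A gene held at the same level by every cell would have a variance equal to its mean. The excess was measured as (variance − mean) divided by the squared mean, the squared coefficient of variation left after counting error. Fos had the largest excess of the 8 at 4.15, larger than 99.6% of the 1914 genes of like mean, whose median was 0.137. Genes compared needed a UMI in at least 5% of thinned cells, and Fos had 5.37%. This left out genes of that mean whose UMIs sat in fewer cells, which favours a high rank for Fos. Dusp1 came second at 1.94, from 159 thinned UMIs, and was in too few cells for the comparison with genes of like mean. Jun had 1.42 (98.9% of genes of like mean) and Nfkbia 1.23 (98.4%). For Zfp36 the excess was 0.714 (95.7%) and for Junb it was 0.467 (94.9%). Btg2 at 0.223 (77.7%) and Jund at 0.190 (73.5%) stood nearer to the bulk of genes. The excesses of Fos, Dusp1, Btg2 and Jund were not clear of sampling error.

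Jun, Nfkbia, Zfp36 and Junb were thus more uneven over cells than most genes of their level, whereas Jund and Btg2 were spread more evenly. Fos ranked higher still, by an excess not clear of sampling error and among genes whose filter favours its rank. From all cells at full depth, the same measure was 2.91 for Fos, 1.26 for Jun and 0.504 for Zfp36, with Nfkbia between these 2. It was 0.377 for Junb, 0.267 for Btg2 and 0.233 for Jund, in the same order. At full depth Dusp1 had 3.17, above Fos. Set beside the AU-rich sites, the 4 genes with at least 2 sites had thinned excesses of 0.714 to 4.15, and the 4 genes with 0 or 1 site had 0.190 to 1.42. The ranges overlap through Jun, and a relation between sites and variation was not tested.

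**Figure D1:**
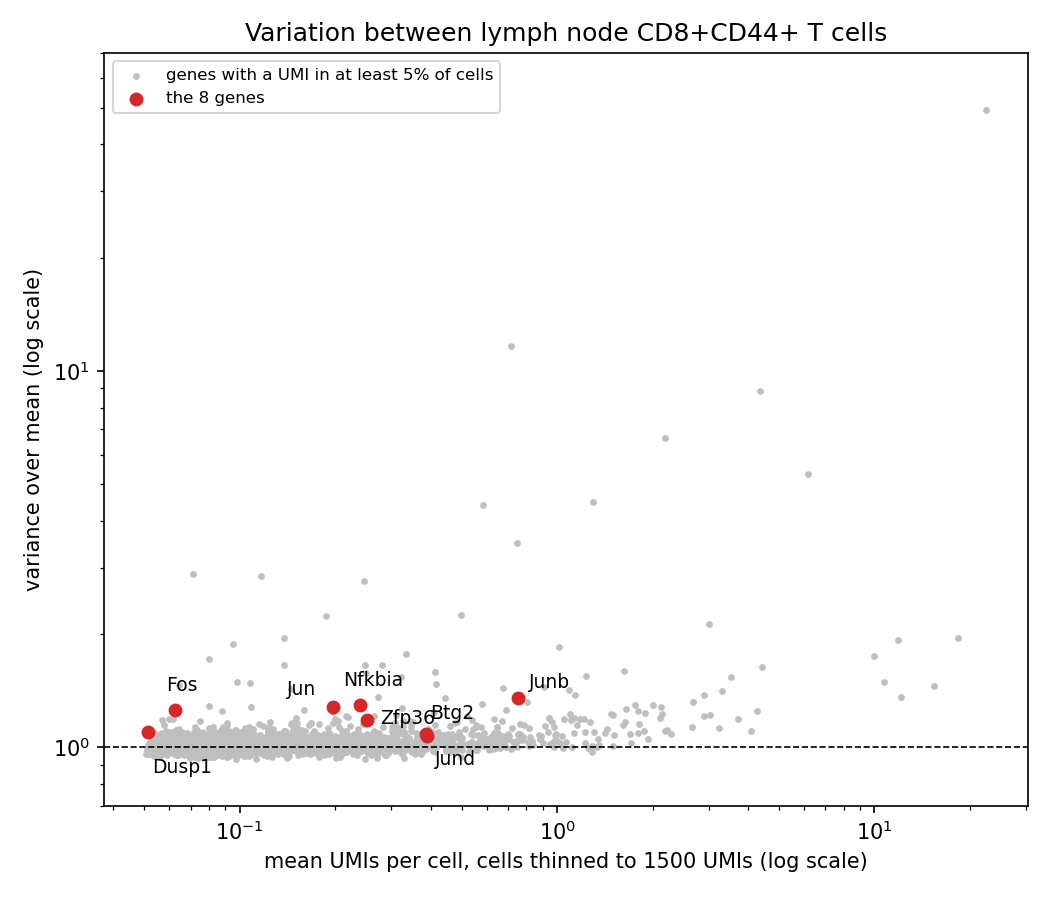
Variance over mean (vertical axis, log scale) against mean UMIs per cell (horizontal axis, log scale) for genes detected in 5% or more of 3090 cells thinned to 1500 UMIs, in grey, and the 8 genes in red. The dashed line is the value counting error alone gives. Junb at 1.35, Nfkbia at 1.29, Jun at 1.28 and Fos at 1.26 lie above most genes, and Jund at 1.07 and Btg2 at 1.09 lie close to the line.

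Values of r among the 8 genes were small. Over the 28 pairs, Pearson r of log2(thinned UMIs + 1) across the 3090 cells averaged 0.018, with 21 pairs above 0 and 0 above 0.1. The highest was 0.062, between Zfp36 and Nfkbia, and the next was 0.052, between Junb and Nfkbia. Fos had its highest r with Junb (0.041) and its lowest with Btg2 (−0.023). These cells share 1 library and 1 depth, and values this small in sparse counts are given as a description.

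Counting error itself caps r. Caps were drawn from each gene's own variance in UMI counts without the log. For 2 genes that moved in perfect step, r would then be about 0.139 at the median of the 28 pairs. It would lie between 0.074 (Jund with Btg2) and 0.243 (Junb with Nfkbia). All 28 pairs had an r under 50% of their cap, but r was taken after the log and the cap before it. With both taken on counts without the log, r over cap had a median of 0.111 and reached 0.546 for Dusp1 with Zfp36. For pairs with Fos, Dusp1, Btg2 or Jund the cap rests on an excess not clear of sampling error. Fos and Jun, the classical AP-1 dimer, had a measured 0.024 under a cap of 0.212, and Zfp36 and Nfkbia 0.062 under a cap of 0.186. With full-depth counts corrected for counting error, the median over the 28 pairs was 0.087 and 20 pairs were above 0. The highest corrected values were 0.355 for Dusp1 with Zfp36 and 0.289 for Jund with Nfkbia, and the lowest was −0.116 for Jund with Zfp36. In thinned cells the same correction gave 0.546 for Dusp1 with Zfp36 but −0.003 for Jund with Nfkbia, whose r was −0.010. In 9 of the 28 pairs the full-depth corrected value and the thinned r had opposite signs. Fos and Jun had a corrected value of 0.096, and Junb and Jund 0.240.

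Other gene lists, taken over their genes seen in at least 5% of thinned cells, mostly had values as small. Mean r over pairs was 0.0085 for other immediate early genes (45 pairs), 0.0076 for NF-κB and its inhibitors (36 pairs), 0.010 for RNA decay genes (36 pairs) and 0.022 for TCR-induced early genes (10 pairs). Over 9 of the 10 lists it lay between −0.020 (MAP kinase feedback genes, 1 pair) and 0.036 (housekeeping genes, 36 pairs), a range that holds the 0.018 of the 8 genes. The exception was the interferon-stimulated genes at 0.120 (21 pairs), whose corrected r had a median of 0.576 over 66 pairs. Egr1 with Nr4a1 had an r of 0.104, which rests on 3 cells with a UMI of both.

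**Figure D2:**
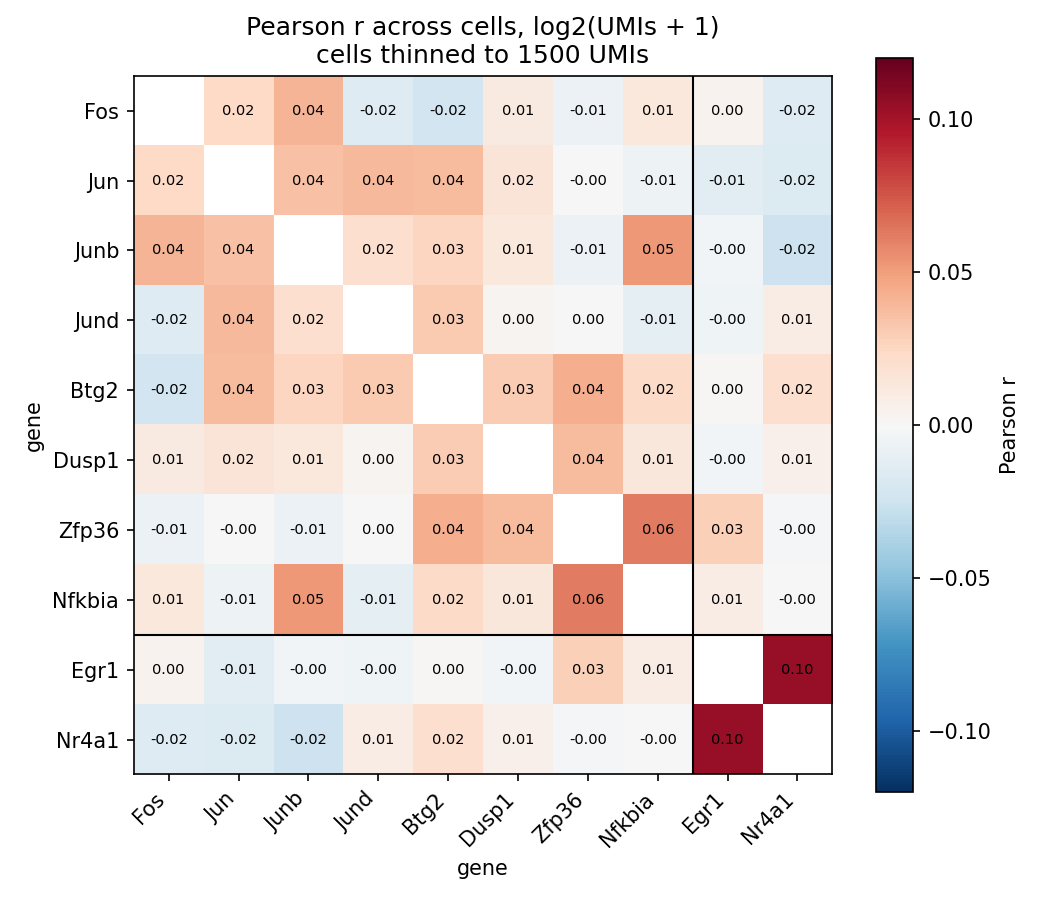
Pearson r across 3090 thinned cells for each pair of the 8 genes, Egr1 and Nr4a1, as colour and as printed values. Black lines part the 8 genes from Egr1 and Nr4a1. Pairs of the 8 genes lie between −0.023 and 0.062, and the only pair above 0.1 is Egr1 with Nr4a1 at 0.104, from 3 cells with both.

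Co-detection gave the same account. The number of cells with a UMI of both genes was 1.07 times the product of their shares at the median of the 28 pairs, between 0.860 (Fos with Btg2) and 1.27 (Fos with Jun). Fos and Jun were found together in 33 cells, against 26.0 from the product. Of the 3090 cells, 13.8% held none of the 8 genes, against 12.1% from the product, and 10 cells (0.324%) held 6 or more, against 0.0938%. The summed UMIs of the 8 genes had a median of 2 per thinned cell, a 90th percentile of 5 and a maximum of 14. No thinned cell held all 8 genes, and both ends of the distribution were above the product.

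The genes most like the summed 8 were looked for among 3120 other genes seen in at least 5% of thinned cells. The highest r was that of Malat1, a nuclear non-coding RNA, at 0.111, followed by Ltb, the lymphotoxin beta subunit, at 0.0997 and the RNA helicase Ddx5 at 0.097. Next came Zfp36l1, a close relative of Zfp36 that also binds AU-rich RNAs, at 0.091, and Ppp1r15a, a stress-induced phosphatase subunit, at 0.085. Id2, Atrx, Btg1, Rgcc, Cd3g, H2-K1 and Itm2b lay between 0.083 and 0.073, and Btg1 is the relative of Btg2 kept high in resting lymphocytes.

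At the other end were Ly6c2, a surface protein of memory and interferon-exposed CD8 T cells, at −0.103 and Tpt1 at −0.080. Rack1, Eef1a1, Eef2, Npm1, Nsa2 and Tpi1 lay between −0.073 and −0.054, and the first 5 of these act in translation or ribosome assembly. Over all the genes the median r was 0.0077, with 95% of them between −0.033 and 0.048. The summed 8 genes had a Spearman rho of −0.127 with each cell's share of ribosomal protein UMIs. These cells share 1 library, and the values were not tested.

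Gene by gene, the neighbours, picked as the highest r among 3120 other genes, were mostly different. How high r would reach among that many unrelated genes was not tested. The neighbours and their difference are therefore given as a description only. Btg2 was closest to Id2, which guides CD8 effector fate, at 0.112, then to Cops9 (0.089) and Capg (0.081). Nfkbia was closest to Zfp36l1 (0.094), Ltb (0.090), a known NF-κB target, and Btg1 (0.073). Junb was closest to Themis (0.075), Malat1 (0.068) and Pim1 (0.065), and Pim1, a cytokine-induced kinase, was also the closest to Zfp36 (0.073), ahead of Susd6 (0.068) and Ndufa9 (0.063). For Fos they were Anp32e, Gatd3a and Rab3ip (0.073 to 0.066), and for Jun they were Tpp2, Os9 and Aimp1 (0.069 to 0.062). For Jund they were Ubl3, Mrps33 and Ppp1r15a (0.069 to 0.068), and for Dusp1 Tfam, Sit1 and Mcm6 (0.075 to 0.069).

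Lists of related genes, counted where a gene had at least 50 thinned UMIs, were set beside all 6823 such genes, of which 62.3% had an r above 0 with the summed 8 (median 0.0062). In the list of NF-κB and its inhibitors, 15 of 15 genes had an r above 0 (median 0.020), led by Traf1 (0.054) and Rel (0.052), with Nfkbie (0.002) and Nfkbiz (0.010) lowest. In the list of other immediate early genes it was 12 of 13 (median 0.027), led by Ppp1r15a and by Ier5 (0.065), with Socs3 (−0.007) and Cited2 (0.013) lowest. TCR-induced early genes had 6 of 8 above 0 (median 0.011), with Ifng (0.053) and Cd69 (0.050) highest and Xcl1 (−0.019) and Myc (−0.013) lowest. RNA decay genes had 13 of 20 above 0 (median 0.0091), with Zfp36l1 and Btg1 highest and Dcp2 (−0.035) and Tob2 (−0.022) lowest. Heat shock genes had 5 of 9 (median 0.0027), from Dnajb1 at 0.036 and Hsp90aa1 at 0.014 to Hsp90ab1 at −0.045 and Hspe1 at −0.048. MAP kinase feedback genes had 5 of 6 (median 0.017), led by Dusp5 (0.043) and Dusp6 (0.023), with Spred2 (−0.018) and Dusp10 (0.004) lowest. AP-1 and related factors had 2 of 3, with Bach2 (0.019) and Batf (0.016) above 0 and Atf4 at −0.009. Quiescence and homing genes had 7 of 10, and interferon-stimulated genes 7 of 11. Housekeeping genes had 4 of 9, from B2m (0.022) and Tmsb4x (0.016) to Gapdh (−0.016) and Eef1a1. No gene of these 10 lists exceeded 0.1.

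Whether the 8 genes follow Egr1 and Nr4a1 was read first from r, and the 16 pairs averaged −0.0004, between −0.025 (Junb with Nr4a1) and 0.028 (Zfp36 with Egr1). The cap drawn as above was 0 for pairs with Nr4a1, so r cannot decide for them. For pairs with Egr1 it lay between 0.128 (Jund) and 0.249 (Junb). Full-depth values corrected for counting error were highest for Zfp36 with Egr1 (0.233), Jund with Nr4a1 (0.186) and Nfkbia with Nr4a1 (0.157). The lowest was −0.072, for Jund with Egr1. Of the thinned cells, 43 held an Egr1 UMI and 14 an Nr4a1 UMI, 3 of them both, which made 54 cells against 3036 with neither. These 54 cells were 1.75% of cells and held 1.68% of the summed UMIs of the 8 genes. None of the 8 genes was at least 1.5-fold higher in the 54 cells, where 21.4% of all genes tested were, and 1 (Jun) was at least 1.5-fold lower, where 26% were. Jun had 7 UMIs or 86.4 CPM in the 54 cells, against 132 CPM in cells with neither, a log2 ratio of −0.60 (−1.93 to 0.44). Among the 347 cells with most UMIs of the 8 genes, 4 held an Egr1 or Nr4a1 UMI (1.15%).

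At full depth the same comparison had more UMIs, with 151 cells against 3115. Zfp36 had 210 CPM in cells with an Egr1 or Nr4a1 UMI, against 155 CPM in cells with neither, a log2 ratio of 0.44 (0.20 to 0.67). Nfkbia had 213 CPM against 160 CPM, a log2 ratio of 0.41 (0.17 to 0.64). These were the 2 genes of the 8 whose interval stayed above 0, as 4.30% of all genes did. Thinned to 1500 UMIs, the values were 0.32 (−0.46 to 1.01) for Zfp36 and 0.22 (−0.62 to 0.95) for Nfkbia.

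The AP-1 subunits showed smaller values. Junb had 528 CPM against 483 CPM (0.13, −0.02 to 0.27), Jun 145 CPM against 128 CPM (0.18, −0.11 to 0.46) and Jund 267 CPM against 252 CPM (0.08, −0.13 to 0.29). Fos had 42.3 CPM against 47.2 CPM (−0.16, −0.72 to 0.35). Btg2 had 263 CPM against 260 CPM (0.02, −0.20 to 0.22) and Dusp1 had 37.0 CPM against 36.2 CPM (0.03, −0.57 to 0.58). None of the 8 was 1.5-fold higher or lower at full depth, where 6.31% of 9036 genes were higher and 8.13% lower.

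Other genes did separate the same 2 groups of cells. Of 14 TCR-induced early genes, 10 were at least 1.5-fold higher in cells with an Egr1 or Nr4a1 UMI and 0 lower, with a median log2 ratio of 0.87, against 0.03 over all genes. Ccl4, a chemokine, had 193 CPM against 37.2 CPM (2.34, 2.10 to 2.64), and Tnfrsf9, the costimulatory receptor 4-1BB, had 33.0 CPM against 8.48 CPM (1.84, 1.28 to 2.59). The lowest were Nfatc1 (−0.08, −0.56 to 0.37) and Ifng (0.02, −1.33 to 1.10). Of 15 genes of NF-κB and its inhibitors, 3 were 1.5-fold higher and 0 lower, with Nfkbid (1.74, 1.34 to 2.22) and Rel (0.84, 0.41 to 1.29) highest and Nfkbie (−0.27) and Rela (−0.07) lowest. Of 8 further AP-1 and related factors, 1 was higher and 2 were lower, each on few UMIs: Fosb with 5 UMIs (0.67, −0.87 to 2.12), Mafk with 5 (−0.65, −2.37 to 0.53) and Nfil3 with 1 (−1.26, −7.12 to 0.74). Batf was second highest at 0.41 (−0.10 to 0.90). Of 16 other immediate early genes 1 was higher, Gadd45b (0.73, −0.20 to 1.65), followed by Klf6 (0.35), with Ier5 (−0.26) and Socs3 (−0.35) lowest. Of 21 RNA decay genes 0 were higher or lower, from Zc3h12a (0.51) and Cnot7 (0.43) to Cnot8 (−0.22) and Cnot2 (−0.46). Of 6 MAP kinase feedback genes 0 were higher or lower, from Dusp10 (0.47) and Dusp5 (0.44) to Spred2 (0.22) and Dusp11 (0.09). Intervals above 0, as for Zfp36 and Nfkbia, were also found for 2 RNA decay genes. These were Zfp36l1 (0.39, 0.15 to 0.62) and Btg1 (0.19, 0.04 to 0.35). The same held for 10 TCR-induced early genes, 3 of NF-κB and its inhibitors, 1 MAP kinase feedback gene and 4 of 9 heat shock genes. Other immediate early genes had 1 interval above 0 and 1 below, and AP-1 and related factors had 0.

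In the 54 thinned cells the same lists had few UMIs and other counts. TCR-induced early genes had 6 of 8 higher and 0 lower. NF-κB and its inhibitors had 2 of 15 higher and 7 lower (median −0.54), RNA decay genes 6 of 20 higher and 5 lower, and other immediate early genes 2 of 13 higher and 4 lower. At full depth, cells with an Egr1 or Nr4a1 UMI had a median of 4563 UMIs, against 4408 in cells with neither. For the 54 thinned cells, the medians before thinning were 4189 against 4527 UMIs. In thinned cells, summed resident memory markers (6 of 6 in the table) were at 1160 CPM in cells with an Egr1 or Nr4a1 UMI, against 669 CPM in cells with neither, and B cell markers at 259 against 241 CPM. The resident memory list shares Cd69 and Xcl1 with the TCR-induced early genes. The part of these markers in the result was not tested.

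**Figure D3:**
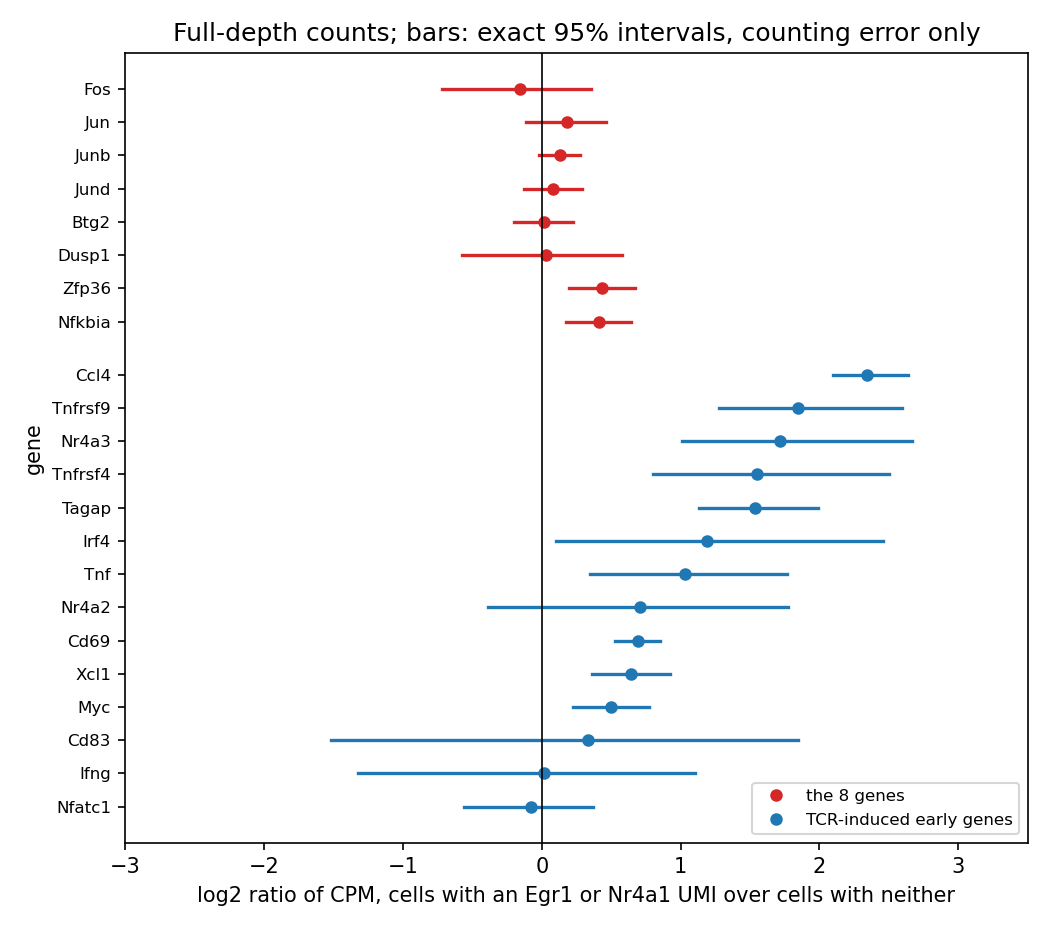
Log2 ratio of CPM (horizontal axis) in 151 cells with an Egr1 or Nr4a1 UMI over 3115 cells with neither, at full depth, for the 8 genes (red) and 14 TCR-induced early genes (blue). Bars are exact 95% intervals of the ratio of counts. The 8 genes lie between −0.16 and 0.44, whereas Ccl4, Tnfrsf9, Nr4a3, Tnfrsf4, Tagap, Irf4 and Tnf lie above 1.

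The share of cells with a UMI climbed with depth. Across the quartiles of UMI total (medians of 2610, 4052, 4969.5 and 6480 UMIs), Junb was seen at full depth in 66.2%, 76.3%, 80.3% and 84.3% of cells, and Fos in 10.5%, 14.2%, 15.9% and 18.1%. At an equal 1500 UMIs a cell the direction turned: Junb had 450.2 CPM in the deepest quartile, against 582 CPM in the shallowest. The summed 8 genes had 1763, 1541, 1485 and 1425 CPM.

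Between the top and the bottom quartile of depth, 0 of the 8 genes were 1.5-fold higher, as were 1.34% of 4867 genes, and 0 were 1.5-fold lower, as were 16.4%. Zfp36 had 134 CPM in the top quartile, against 185 CPM in the bottom quartile (log2 ratio −0.46, −0.77 to −0.16). Btg2 (−0.39), Junb (−0.37) and Nfkbia (−0.31) also had intervals below 0, and Jun alone had a value above 0 (0.13, −0.19 to 0.46). The median over the 8 genes was −0.38, but the median over all genes was itself −0.24. Scaled by the median of ratios, which moves all genes by 0.27, the median over the 8 was −0.11 and the intervals of these 4 genes spanned 0.

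Mitochondrial share, a common sign of cell stress or damage, went furthest with Btg2. Btg2 had 231, 220, 256 and 320.0 CPM across the quartiles of mitochondrial share (medians of 1.90%, 2.39%, 2.80% and 3.46%), so the level stood out in the top quartile. The log2 ratio of the top to the bottom quartile was 0.47 (0.24 to 0.70), and it was above 0 within each quartile of depth, between 0.25 and 0.59. Zfp36 had 199 CPM in the top quartile, against 157 CPM in the bottom quartile (0.34, 0.06 to 0.63). Within quartiles of depth its values ran between −0.06 and 0.97, and another random thinning gave 0.01.

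The other 6 genes had intervals that spanned 0, with Fos at 0.32 (−0.25 to 0.91), Junb at −0.07 (−0.24 to 0.10) and Dusp1 at −0.18 (−0.81 to 0.43). None of the 8 was 1.5-fold higher, as were 3.83% of 4828 genes, or lower, as were 2.86%. Spearman rho of the summed 8 genes across the 3090 cells was −0.087 with UMI total and 0.047 with mitochondrial share. By quartiles of the summed 8 genes, CD8 T cell markers were at 4412 CPM in the top quartile, against 4090 CPM in the bottom quartile. Effector markers (6 of 7 in the table) were at 231 against 154 CPM, B cell markers at 269 against 223 CPM, and resident memory markers at 761 against 614 CPM. CD4 T cell markers were at 22.5 against 11.2 CPM, myeloid markers at 13.0 against 7.76 CPM, and keratinocyte markers (1 of 4 in the table) at 12.1 against 6.04 CPM. Markers of recent stimulation, which include Egr1 and Nr4a1 (6 of 7 in the table), were at 161 against 152 CPM. Interferon markers were at 259 against 243 CPM, and NK cell markers (1 of 4) at 82.0 against 80.2 CPM. Proliferation markers (3 of 4) went the other way, at 24.2 against 35.4 CPM. Their part in the result was not tested.

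**Figure D4:**
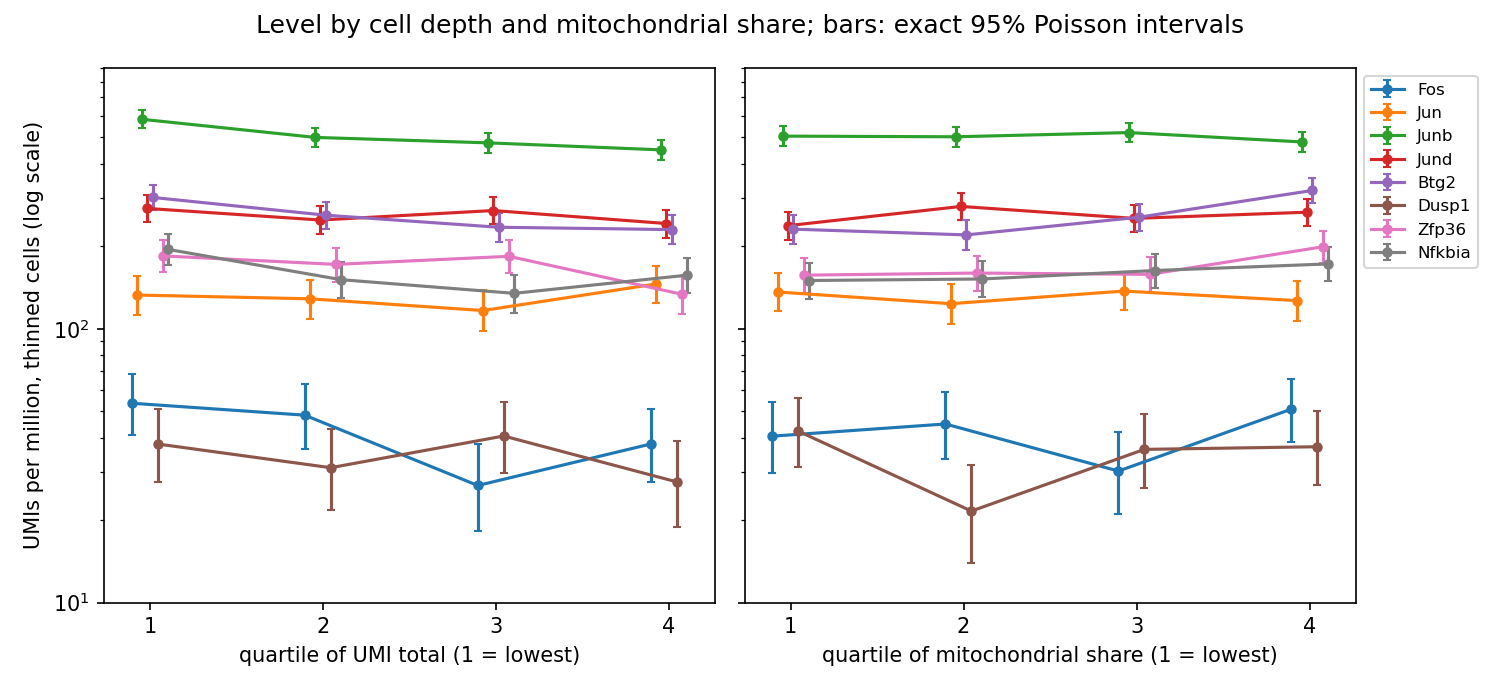
CPM in thinned cells (vertical axis, log scale) of the 8 genes by quartile of UMI total (left) and of mitochondrial share (right), with exact 95% Poisson intervals. Junb declines with depth from 582 CPM in the lowest quartile to 450.2 CPM in the highest, and Btg2 reaches 320.0 CPM in the highest quartile of mitochondrial share.

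Clusters of cells were drawn without the 8 genes and without the early response lists, and each is called by its leading genes. The 7 clusters held 167 to 826 cells. Jun was highest in cluster 5 (2010016I18Rik, Ust, P2rx4 and Pgm2l1; 187 cells) with 220 CPM (190 to 254). It was lowest in cluster 6 (Lgals3, Gzma, Anxa1 and Cx3cr1; 167 cells) with 73.0 CPM (53.7 to 97.1), a 3.02-fold range (2.18 to 4.25). That range was wider than for 95.3% of the 3201 genes with at least 500 UMIs, whose median was 1.62-fold. Without cluster 5 the range of Jun was 1.82-fold (1.32 to 2.55). The 3201 genes were not matched by level. Counting error widens the range of genes with few UMIs, such as Dusp1 with 527, more than that of Junb with 7064.

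Cluster 6, among whose leading genes Gzma encodes a cytotoxic granule enzyme, was lowest for Jun but highest for Jund, Btg2 and Dusp1. Jund had 359 CPM there (314 to 408), against 224 CPM in cluster 3 (Gsto1, Bmyc and Tec), where it was lowest. Btg2 likewise had 393 CPM (346 to 445) in cluster 6 and 218 CPM in cluster 3. Dusp1 had 59.1 CPM (41.8 to 81.1) in cluster 6, against 25.3 CPM (17.7 to 35.0) in cluster 1, led by the interferon-stimulated genes Rsad2, Ifit1 and Isg15. Of the 3201 genes, 48.4% had a smaller range over clusters than Jund, 64.8% a smaller one than Btg2 and 85.9% a smaller one than Dusp1. Thinned to 1500 UMIs a cell, cluster 6 was still highest for Jund (350.1 CPM), Btg2 (436 CPM) and Dusp1 (48.0 CPM, 10 UMIs). The lowest cluster was then cluster 5 for Jund (181 CPM) and cluster 0 for Dusp1 (26.4 CPM), and still cluster 3 for Btg2 (204 CPM).

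Nfkbia was highest in cluster 2 (Nrn1, Wnt10a, Cd200 and Izumo1r; 449 cells) with 274 CPM (249 to 300), against 140 CPM (127 to 153) in cluster 4 (AY036118 and Gm42418), a 1.96-fold range. Of the 3201 genes, 73.9% had a smaller range. Egr1 was also highest in cluster 2, at 24.4 CPM (17.4 to 33.2), and was at most 11.6 CPM in the other clusters. Nr4a1 was highest in cluster 5, at 10.4 CPM from 9 UMIs (4.78 to 19.8), and lowest in cluster 6, at 1.55 CPM from 1 UMI. Cluster 2 cells had a median of 3180 UMIs. Thinned to 1500 UMIs, Nfkbia still had 248 CPM in cluster 2 and 133 CPM in cluster 4, and Jun 218 CPM in cluster 5 and 67.1 CPM in cluster 6.

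Fos was highest in cluster 5 with 76.6 CPM (59.2 to 97.4), against 40.4 CPM in cluster 3, a range wider than for 69.8% of the 3201 genes. Thinned, cluster 5 had 9 Fos UMIs or 40.8 CPM, so the rank was not kept, and without cluster 5 the range was 1.19-fold (0.89 to 1.59). At full depth Junb and Zfp36 were the flattest: Junb ran between 557 CPM (cluster 2) and 449 CPM (cluster 4), a 1.24-fold range, and Zfp36 between 181 CPM (cluster 5) and 143 CPM (cluster 6), a 1.27-fold range (0.97 to 1.66). Of the 3201 genes, 5.97% had a smaller range than Junb and 7.84% a smaller one than Zfp36. Thinned, Junb ran between 639 CPM in cluster 5 and 422 CPM in cluster 1, and Zfp36 between 218 CPM in cluster 5 and 155 CPM in cluster 3, so the end clusters were not kept. The summed 8 genes spanned 1904 CPM (cluster 2) to 1414 CPM (cluster 3), a 1.35-fold range. Thinned, clusters 2 and 3 were still the ends, at 1907 and 1436 CPM. Egr1 was also highest in cluster 2. At full depth clusters 5 and 6 came next for the summed genes, at 1785 and 1786 CPM, and had 5.80 and 6.22 CPM of Egr1. Whether the summed genes follow Egr1 over clusters was not tested.

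**Figure D5:**
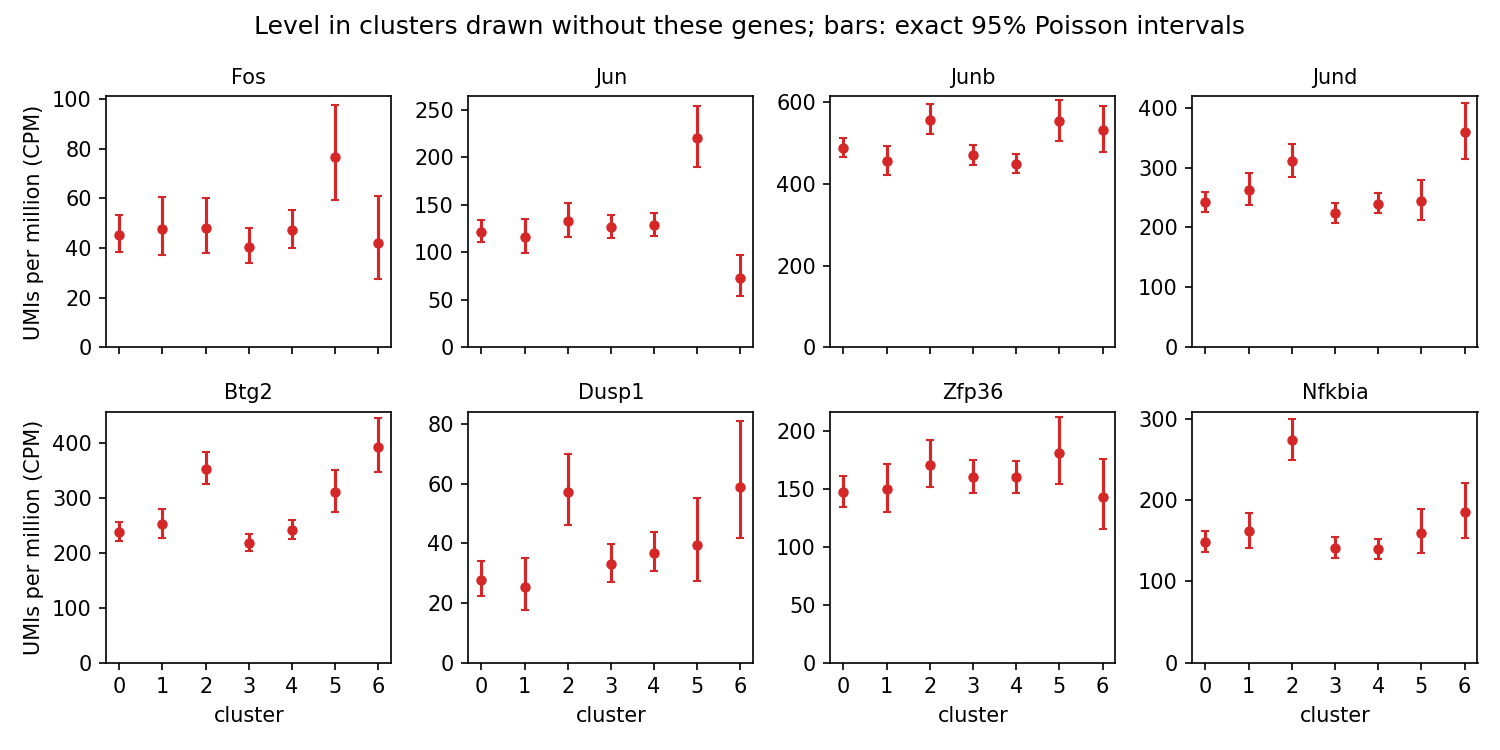
CPM (vertical axis, from 0) of each of the 8 genes in the 7 clusters (horizontal axis), with exact 95% Poisson intervals. Jun is apart in clusters 5 (220 CPM) and 6 (73.0 CPM), Nfkbia in cluster 2 (274 CPM), and Junb and Zfp36 have the smallest ranges at this full depth.

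T cell clones, defined by identical TRA and TRB sequences, linked some lymph node cells to skin. Cells of clones shared with skin numbered 28, from 26 clones, against 2107 cells from 2059 clones of the lymph node alone, with median depths of 2281 and 4556 UMIs. Btg2 had 474 CPM (32 UMIs) in cells of shared clones, against 249 CPM in the other cells, a log2 ratio of 0.93 (0.38 to 1.43). Nfkbia (0.80, 0.05 to 1.47) and Jund (0.72, 0.12 to 1.27) were the other genes at least 1.5-fold higher, and Junb had 0.56 (0.11 to 0.97). Jun was lower, with 2 UMIs or 29.6 CPM in cells of shared clones, against 130 CPM in the others (−2.09, −5.18 to −0.27).

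That made 3 of the 8 genes higher and 1 lower, where 38% of 8398 genes were higher and 28.6% lower, so the counts were not above those over all genes. The median over all genes was 0.27, or 0.16 by the median of ratios. With cells thinned to 1500 UMIs, Btg2 (1.30, 0.58 to 1.94) and Junb (0.73, 0.13 to 1.28) were still higher, but Jund (−0.088, −1.30 to 0.90) and Nfkbia (−0.31, −2.20 to 1.05) were below 0.

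Clone size showed smaller differences. In the 108 cells of 58 clones with at least 2 lymph node cells, 0 of the 8 genes were 1.5-fold higher or lower than in the 2027 cells of clones seen once, where 17% of genes were higher and 13.6% lower. Jund had 164 CPM in cells of expanded clones, against 246 CPM in cells of clones seen once (−0.58, −1.02 to −0.18). Jund's value was −0.62 (−1.26 to −0.05) in thinned cells and −0.04 (−0.26 to 0.18) with clones defined by TRB alone. Among clones of the lymph node alone it was −0.65 (−1.12 to −0.22), and Jund was then the 1 gene of the 8 at least 1.5-fold lower, with 0 higher, where 15.1% of 8376 genes were lower and 16% higher. The other 7 genes had intervals that spanned 0, and the depth gap here was 2581 against 4599 UMIs at the median.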

How the data were processed

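The lymph node gene table was deposited by the authors as whole UMI counts, genes by cells, with lanes pooled. Bowtie, RSEM and mm10 are named, with no role or version, per the submitters' processing notes. The deposited TCR tables give UMI counts per contig. The lanes carry no columns of their own, so n is 1 library.

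From these counts, summed CPM carried exact Poisson 95% intervals and shares Clopper-Pearson intervals. Cells were thinned without replacement to 1500 UMIs. Pearson r used log2(thinned count + 1). Corrected r used moments of full-depth rates with the counting variance removed, chosen after seeing the data. Log2 ratios had a prior of 1 CPM, and their intervals did not. Genes with at least 50 UMIs over both groups were set against a 1.5-fold threshold, which is a description and no significance test. Leiden clusters (resolution 1.0) used 2000 variable genes, 30 components and 15 neighbours. Genes of like mean were those seen in at least 5% of thinned cells with a mean within 2-fold. Clones needed exactly 1 TRB sequence. No doublet caller was used, and 315 cells with at least 2 TRB sequences were left out in an alternative.

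The 8 genes and all lists were chosen with earlier results of these data known. The other named genes are the 12 highest and 8 lowest in r with the summed genes, 3 per gene, and the 2 highest and 2 lowest of each list described, except in 2 lists whose single genes are not reported here. The 2 to 4 leading genes name a cluster, and genes named as leading a contrast in captions were chosen after their values were seen. Scripts were tested on simulated data. Tools were Python 3.11.15, numpy 2.4.6, scipy 1.17.1, pandas 2.3.3, scanpy 1.11.5 and matplotlib 3.10.9.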

Additional observations from a re-analysis of the deposited data

How the results depend on the processing

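Of 710 values recomputed under the alternatives, 614 stayed within the interval of the main value, or within 1.5-fold of it for counts of genes. Of 56 summary values of a comparison, 53 did so. For r and for excess variation these intervals were made from the cells of 1 library. The median level over the 8 genes, 160 CPM, became 291 CPM with mitochondrial and ribosomal protein genes out of the denominator. It became 169 CPM when each gene's level was the mean of the cells' own CPM. Mean r over the 28 pairs, 0.018, became 0.079 with full-depth counts corrected for counting error. In corrected r, 9 of the 28 pairs had another sign than in r. Among values whose own interval excluded 0, signs turned for Btg2 with Zfp36 in corrected r (−0.052), for Zfp36 between the top and bottom 10% of cells by mitochondrial share (−0.050), and for Jund (−0.088) and Nfkbia (−0.31) in cells of shared clones after thinning. The number of genes at least 1.5-fold higher with an Egr1 or Nr4a1 UMI, 1459, became 2238 with no minimum of UMIs and 570 with full-depth counts. With no minimum, the number higher in the top quartile of UMI total, 65, became 426, and that of mitochondrial share, 185, became 1037. The causes were not tested. No paired analysis was possible because the columns carry no lane or replicate number. No replicate could be left out, since there is 1 library. Depth limits Egr1 and Nr4a1 most: with 160 and 55 UMIs, a cell with no UMI of either may still express them.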
